A study of Mus musculus with 7 samples.

Results

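Cluster 4 of the authors' clustering was a set of 343 cells with the transcripts of non-classical monocytes, among 4290 cells that had gene counts. Its members were all counted cells that the deposited metadata place in cluster 4 at resolution 1. They came to 64 cells in tumor-bearing blood, 132 in naive blood, 75 in tumor-bearing spleen and 66 in naive spleen, with 2 more in tumor-bearing bone marrow, 1 in naive bone marrow and 3 in the tumor. The mice were C57/Bl6, and the tumor-bearing ones carried LLC, a transplantable Lewis lung carcinoma, at day 14. CD11b+ cells, which are mostly myeloid, had been enriched, and RNA and 47 antibody tags (antibodies carrying an oligonucleotide that is counted with the RNA) were read in the same cells. The naive animals carried no tumor and are the comparison for the tumor-bearing ones in each tissue. The labels give no age or sex and do not say how many animals were pooled or which tissues shared an animal. Each tissue and disease state was a single library, so no difference between libraries had a replicate check and none carries a p-value.

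Mouse blood holds classical monocytes, which carry Ly-6C and the chemokine receptor Ccr2 and enter inflamed tissue, and non-classical monocytes, which carry little Ly-6C and much CD43 and Cx3cr1 and crawl along the vessel wall. The nuclear receptor Nr4a1 and the factor Cebpb are required for non-classical monocytes in mice, which mostly arise from the classical ones. CD16.2, the product of Fcgr4, is an Fc receptor by which they bind IgG.

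Cluster 4 made up 18.1% of the counted cells of tumor-bearing blood (exact 95% Clopper-Pearson interval 14.2 to 22.5), 16.22% of naive blood (13.7 to 18.9), 12.95% of tumor-bearing spleen (10.3 to 15.96) and 15.9% of naive spleen (12.5 to 19.7). It made up 3.51% of tumor-bearing bone marrow (0.428 to 12.1), 0.654% of naive bone marrow (0.0165 to 3.59) and 0.156% of the tumor (0.0323 to 0.457). These shares depend on the enrichment and on the authors' filters, and no direction between libraries was drawn from them. Cluster 4 held 826480 unique molecular identifiers (UMIs, counted RNA molecules) in tumor-bearing blood, 1646865 in naive blood, 679371 in tumor-bearing spleen and 693050 in naive spleen. The median cluster 4 cell had 11027, 11677, 8683 and 10096.5 UMIs in that order of libraries, beside 12595, 11766.5, 9951 and 10710.5 in the other counted cells. None of the 2 cell barcodes that occurred in 2 libraries was in cluster 4. At resolutions 0.3, 0.7 and 0.8 a cluster of 333 to 336 cells held 332 or 333 of the 343, and at 0.9 the same 343 cells formed a cluster. At 0.4, 0.5 and 0.6, 343, 343 and 339 of them shared a cluster of 621 to 661 cells with others. At 0.2 all 343 lay in a cluster of 2311 cells.

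The 8 marker genes were higher in cluster 4 than in the other counted cells of each of the 4 libraries. For each library the UMIs of all cluster 4 cells were added up and divided by the total of those cells, as counts per 1000000 UMIs (CPM), and the other counted cells were treated likewise. Eno3, the muscle-type enolase, stood at 295 CPM in cluster 4 against 18.9 in the other cells of tumor-bearing blood, 247 against 7.75 in naive blood, 183 against 16.6 in tumor-bearing spleen and 130 against 8.31 in naive spleen. It lies on chromosome 11 at 70657202 to 70662513 (GRCm38, GENCODE vM21). Ace, the angiotensin-converting enzyme, stood at 727 against 138 CPM, 666 against 100, 793 against 213 and 600 against 143 in the same order of libraries. Every library thus had both genes higher in cluster 4, and with each cell thinned to 5000 UMIs, Ace was seen in 93.2% to 95.5% of cluster 4 cells and in 25.3% to 49.6% of the others. Across the 4 libraries, the ratio of cluster 4 to the other cells was 4.38 to 6.67 for Ear2, a ribonuclease of the eosinophil-associated family whose near-identical members may share reads. It was 3.302 to 6.15 for Treml4, a receptor of the TREM family, 3.13 to 6.67 for Spn, which encodes CD43, and 3.06 to 4.19 for the adhesion molecule gene Ceacam1. S1pr5, a sphingosine 1-phosphate receptor gene, had ratios of 4.34 to 8.95. Fabp4, a fatty acid carrier, varied more between libraries, at 161 CPM in cluster 4 of tumor-bearing blood, 80.2 in naive blood, 58.9 in tumor-bearing spleen and 50.5 in naive spleen, against at most 5.52 CPM in the other cells. The median cluster 4 cell had UMIs of 7 of the 8 markers in both blood libraries and of 6 in both spleen libraries, against 2 or 3 in the other cells. At 5000 UMIs per cell these medians were 5 in all 4 libraries for cluster 4 and 1 or 2 for the other cells. Since the clusters were made from these genes, such values describe the cluster and are not a test of it.

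With 7 of the 8 markers among them, 50 genes had a ratio of 2 or more to the other cells in all 4 libraries. A ratio of 0.5 or less was found for 37, and the 2 counts are 0.987% and 0.73% of the 5068 genes measured in each. The remaining marker was not measured in all 4 libraries. The 9 genes that followed or fell among the markers by their smallest ratio included 3 near-identical BCL2-family genes, Bcl2a1a, Bcl2a1b and Bcl2a1d, whose counts may be split among copies, and Slc12a2, a sodium, potassium and chloride cotransporter. Cd36, a scavenger receptor for lipids and apoptotic cells, had ratios of 18.6 in tumor-bearing blood, 10.4 in naive blood, 4.53 in tumor-bearing spleen and 8.56 in naive spleen. Adgre4, an adhesion receptor of macrophages and monocytes, had 402, 359, 377 and 377 CPM in cluster 4 against 109, 106, 127 and 116 CPM. Gngt2, a G-protein gamma subunit, was at 2011 to 2107 CPM in cluster 4 and at 564 to 791 CPM in the other cells. Fyn, a Src-family kinase, had ratios of 3.27 to 7.33. Bcl2 itself, which blocks apoptosis, was at 99.2, 109, 26.5 and 47.6 CPM in cluster 4, against 10.5, 10.3, 8.67 and 7.78 CPM in the other cells. The survival list had 4 of its 11 measured genes higher in all 4 libraries and none lower. These 4 were Bcl2 and the 3 near-identical genes Bcl2a1a, Bcl2a1b and Bcl2a1d, which may not be separate readings.

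Among transcription factors, 3 of 17 measured genes met the same rule upward in all 4 libraries and none downward. Nr4a1, on chromosome 15 at 101254269 to 101274795, stood at 601 CPM against 140 in tumor-bearing blood, 591 against 140 in naive blood, 518 against 166 in tumor-bearing spleen and 400 against 156 in naive spleen. Tcf7l2, a Wnt-pathway factor, had ratios of 2.23 to 5.74, and Hes1, a Notch target, of 2.16 to 3.91. Klf4, a factor of monocyte differentiation, had ratios of 3.03, 2.85, 2.50 and 1.72, Pou2f2 of 1.68 to 2.98, and Cebpb of 1.49 to 1.91, all under the rule of 2-fold in each library in at least 1 of them. Cebpa, which drives the early steps of the myeloid lineage, had ratios of 0.331 to 0.546. Of 12 further genes known from non-classical monocytes, 6 met the rule, among them Itgal, the LFA-1 integrin chain that holds these cells to the endothelium, at 2.32 to 3.79, Lair1, an inhibitory collagen receptor, at 2.52 to 4.91, and Pglyrp1, a peptidoglycan-binding protein, at 2.37 to 4.21. Cx3cr1, the fractalkine receptor, was 2.03, 1.56, 1.34 and 1.03 times the level of the other cells.

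Genes of classical monocytes were lower in cluster 4, 7 of 12 of them in all 4 libraries. F13a1, a coagulation factor chain, stood at 53.2 CPM in cluster 4 of tumor-bearing blood against 613 in the other cells, at 120 against 651 in naive blood, at 81.0 against 441 in tumor-bearing spleen and at 82.2 against 586 in naive spleen. Ratios were 0.148 to 0.200 for Fn1, which encodes fibronectin, 0.269 to 0.335 for Ccr2 and 0.122 to 0.248 for the proteoglycan gene Vcan. Ly6c2 was reduced but present, at 641, 643, 459 and 617.6 CPM in cluster 4 against 1389, 1512, 1404 and 1320 CPM, and its reads may be shared with Ly6c1. Of the cluster 4 cells, 11 of 64 in tumor-bearing blood, 16 of 132 in naive blood, 25 of 75 in tumor-bearing spleen and 6 of 66 in naive spleen had no Ly6c2 UMI. Plac8, on the same list, had ratios of 0.999 to 1.32. Among type I interferon response genes, 5 of 25 were lower in all 4 libraries and none higher. Ifit1 had ratios of 0.169 to 0.226, and the interferon-induced chemokine gene Cxcl10 of 0.0249 to 0.125, with at most 4.84 CPM in cluster 4.

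**Figure D1:**
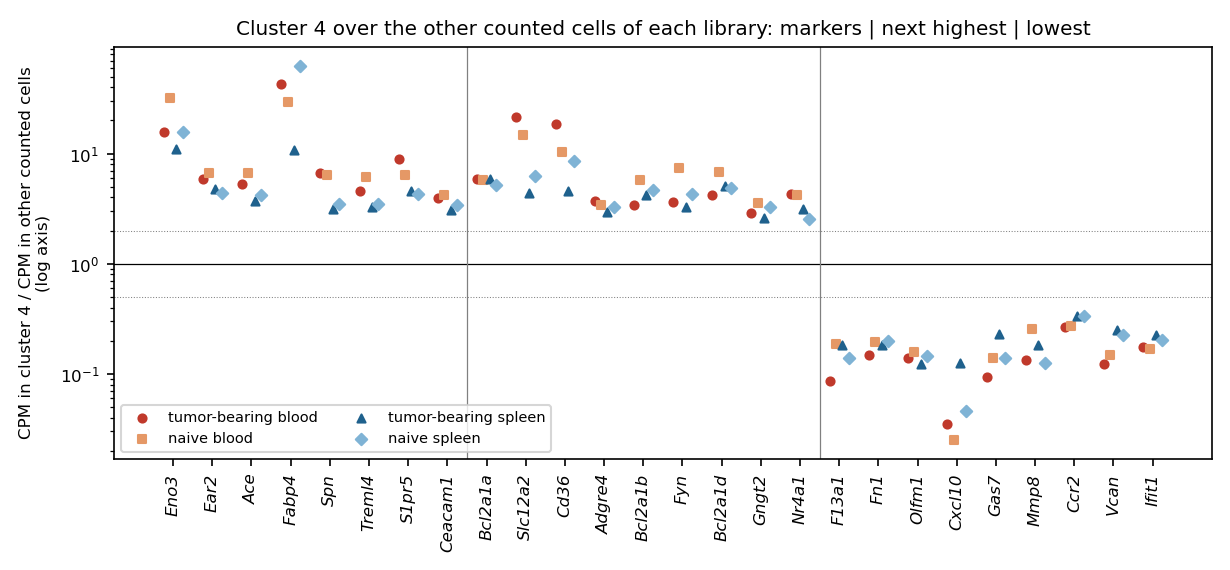
Ratio of CPM in cluster 4 to CPM in the other counted cells of the same library, on a log axis, for the 8 markers, the next genes by smallest ratio, and 9 of the 10 lowest genes. Each symbol is a library, the solid line marks 1 and the dotted lines mark 2-fold; no symbol of the first 2 blocks falls under 2-fold and none of the last is above a ratio of 0.335.

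Antibody tags were not used to make the clusters and give a readout of their own. Tags were summed and scaled to 10000 tag counts of a set of cells, because the median cluster 4 cell carried 6455.5 tags in tumor-bearing blood, 2547 in naive blood, 1694 in tumor-bearing spleen and 2573 in naive spleen. Of 47 tags, 1 was at least 1.5-fold higher in cluster 4 in all 4 libraries (2.13%), and it was CD16.2. CD16.2 made up 391 of 10000 tags in cluster 4 against 129 in the other cells of tumor-bearing blood, 213 against 84.8 in naive blood, 283 against 129 in tumor-bearing spleen and 206 against 92.4 in naive spleen. Its ratio was higher in 4 of 4 libraries, 2.20 to 3.02, with a mean log2 ratio of 1.30 ± 0.21 (SD, n = 4 libraries). The 2-sided exact sign-flip permutation test gave p = 0.125, the smallest that 4 libraries allow, and 0.367 after Benjamini-Hochberg adjustment over the 47 tags, so that no tag could pass 0.05. The 4 libraries are blood and spleen of tumor-bearing and naive mice, not replicates of a condition, and some may share animals. Both the SD and the test take them as independent. Fcgr4, which encodes it and lies on chromosome 1 at 171018920 to 171029761, had RNA ratios of 2.15, 1.89, 1.99 and 2.33 in the same libraries.

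Ly-6C was the tag reduced most, at 1867 of 10000 in cluster 4 against 2659 in the other cells of tumor-bearing blood, 2412 against 2909 in naive blood, 2408 against 3014 in tumor-bearing spleen and 3281 against 3845 in naive spleen. The mean log2 ratio was −0.33 ± 0.12 (SD, n = 4 libraries) and it was lower in 4 of 4. As mean tags per cell it was at 1546 against 1709, 719 against 702, 470 against 540 and 936 against 897 in the same libraries, so that on that scale both naive libraries turned round. The tag for H-2, the MHC class I molecules, was higher in 4 of 4 libraries with ratios of 1.11 to 1.41, and its gene H2-K1 had RNA ratios of 1.24 to 1.30. CD45, the pan-leukocyte phosphatase, had tag ratios of 1.13 to 1.20, and CD54, which is ICAM-1, of 1.05 to 1.30, although Icam1 RNA was at 0.549 to 0.914 of the other cells. In all, 12 tags lay above a ratio of 1 and 4 below it in all 4 libraries, 16 of 47 with the same smallest p of the exact test.

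RNA and tag did not go together for every receptor. The CD36 tag was at 297 of 10000 in cluster 4 against 336 in the other cells of tumor-bearing blood, 388 against 397 in naive blood, 403 against 428 in tumor-bearing spleen and 505 against 509 in naive spleen, while Cd36 RNA was at least 4.53 times as high in each. As mean tags per cell CD36 was higher in cluster 4, at 246 against 216, 116 against 95.7, 78.5 against 76.7 and 144 against 119. The CD11c tag had ratios of 1.04 to 1.14 and its gene Itgax, an integrin chain, RNA ratios of 2.24 to 8.89. The Cx3cr1 tag had ratios of 1.03 to 1.05, with 41.5 to 61.3 of 10000 in cluster 4. The tag for Ly-6G, a neutrophil antigen, was of the same order and took 49.6 to 64.7 of 10000 in cluster 4 cells other than the S100a8-rich ones described next. How much of a low tag is unbound antibody was not tested.

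**Figure D2:**
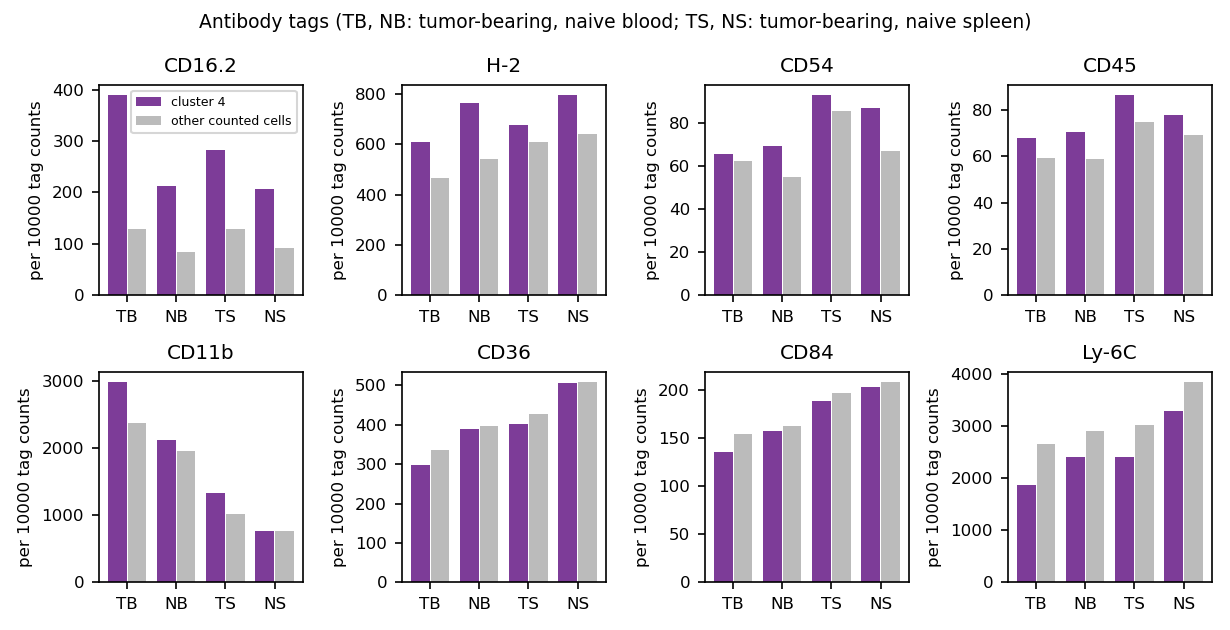
Counts of 8 antibody tags per 10000 tag counts in cluster 4 and in the other counted cells of tumor-bearing blood (TB), naive blood (NB), tumor-bearing spleen (TS) and naive spleen (NS); each bar is a sum over the cells of a library. CD16.2 is at 206 to 391 in cluster 4 and at 84.8 to 129 in the other cells, and Ly-6C is lower in cluster 4 in each library on this scale, but not per cell in the naive libraries.

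A small number of cluster 4 cells held most UMIs of neutrophil genes such as S100a8, and they bear on every comparison between libraries that follows. S100a8 encodes a calcium-binding protein abundant in neutrophils. Its counts divided the cluster 4 cells of blood and spleen into 2 sets, with no cell between 9 and 21 UMIs. Cells with at least 10 S100a8 UMIs, a line drawn after the values were seen, were 7 of 64 in tumor-bearing blood (10.9%, exact 95% interval 4.51 to 21.2), 4 of 132 in naive blood (3.03%, 0.832 to 7.58), 7 of 75 in tumor-bearing spleen (9.33%, 3.84 to 18.3) and 4 of 66 in naive spleen (6.06%, 1.68 to 14.8). The intervals of the tumor-bearing and naive libraries overlap in both tissues. Among the other counted cells such cells were 10.7%, 3.08%, 7.74% and 4% in the same order of libraries. The 7, 4, 7 and 4 cells held 1156 of 1269, 437 of 556, 1315 of 1596 and 808 of 861 S100a8 UMIs of cluster 4. They also held 33 of 36, 30 of 33, 44 of 61 and 29 of 37 UMIs of Cxcr2, the neutrophil chemokine receptor. Their median UMI count was 12440, 16344.5, 10089 and 11943, against 10818, 11617.5, 8480.5 and 10010.5 in the remaining cluster 4 cells, and they had a median of 7, 7, 6 and 5.5 of the 8 cluster markers, against 7, 7, 6 and 6. Ace was at 629, 326, 635 and 764 CPM in them, against 741, 680, 812 and 588 CPM in the remaining cells. Their Ly-6G tag was at 55.9, 49.9, 76.7 and 57.4 of 10000, against 53.3, 49.6, 64.7 and 55.8. Their CD16.2 tag was at 417, 354, 345 and 399 of 10000, against 385, 206, 274 and 196. No doublet caller was run, and whether these are doublets was not tested.

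**Figure D3:**
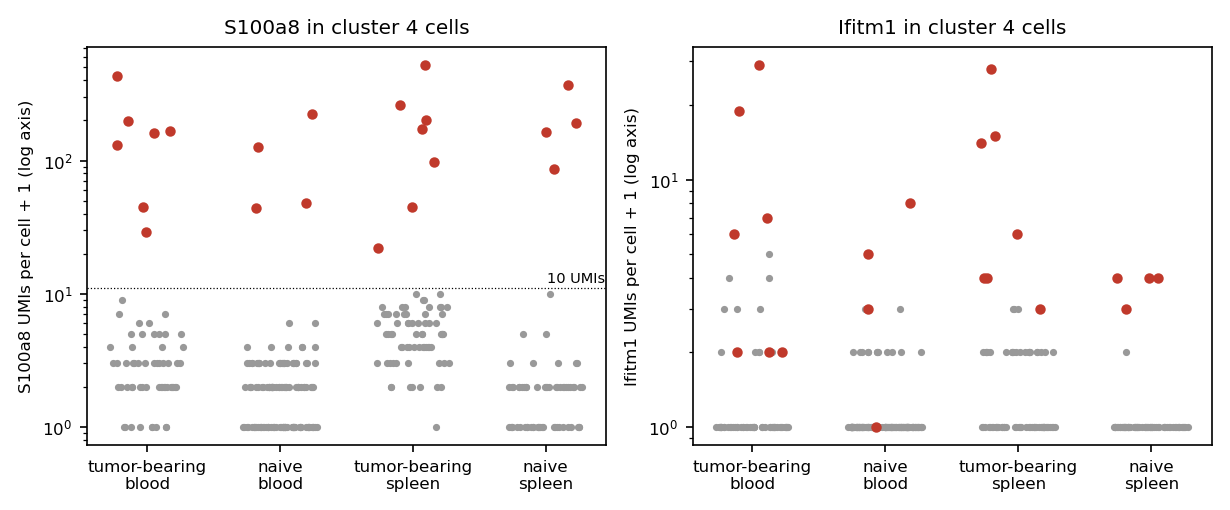
UMIs of S100a8 (left) and Ifitm1 (right) per cluster 4 cell, plus 1 and on a log axis, in the 4 libraries. Each point is a cell, and red points are the 7, 4, 7 and 4 cells with at least 10 S100a8 UMIs, which lie apart from the rest on the left and hold 60 of 81, 13 of 29, 67 of 94 and 11 of 15 Ifitm1 UMIs on the right.

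Markers of other cell types were looked for as well. Of 12 neutrophil markers, 10 in tumor-bearing blood, 9 in naive blood and all 12 in both spleens had a UMI in cluster 4, with summed levels of 3767 CPM in tumor-bearing blood against 1002 CPM in naive blood and 5742 CPM in tumor-bearing spleen against 3058 CPM in naive spleen. The other counted cells had sums of 3911, 1523, 4635 and 2783 CPM in the same order of libraries, so they too were higher in the tumor-bearing libraries. Summed levels of the markers of T cells, NK cells, platelets, red cells, stroma and basophils or eosinophils were each between 0 and 51.9 CPM, with Cd3e, Ncr1, Prf1 and Col1a1 at 0 in all 4 libraries. Of 10 B cell markers, Ighm stood at 128 to 191 CPM and Igkc at 110, 89.5, 13.3 and 12.1 CPM in tumor-bearing spleen, naive spleen, tumor-bearing blood and naive blood, while Ebf1 and Pax5 were at 0 in all 4. Of 11 dendritic cell markers, 5 or 6 had a UMI in each library, with summed levels of 560, 701, 587 and 825 CPM in tumor-bearing blood, naive blood, tumor-bearing spleen and naive spleen, of which the MHC class II gene H2-Ab1 gave 339, 432, 396 and 560 CPM, and Xcr1 and Siglech, of conventional and plasmacytoid dendritic cells, were at 0 in all 4. Of 12 macrophage markers, Hmox1, which encodes heme oxygenase and which monocytes also express, was the highest at 149 to 188 CPM, and Folr2 and Mertk were at 0 in all 4.

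What did the presence of a tumor go with in these cells? In blood, 20 genes were called higher and 18 lower in tumor-bearing than in naive mice, 0.387% and 0.348% of 5174 measured genes (0.734% in either direction). To be measured, a gene needed 50 UMIs or more over both libraries and 20 CPM in either, and it was called at a ratio of at least 2, or at most 0.5, both with all cells and without the cell that held most of its UMIs. The counting interval of the ratio (exact 95%, conditional binomial) lay above 1 for all 20 and below 1 for all 18, but beyond 2-fold for only 7 and 2 of them, and it covers neither the spread between animals nor that between cells. The 8 markers of the cluster were not among the calls, with Ace at 727 CPM against 666 and Spn at 390 CPM against 384. The median log2 ratio over all measured genes was −0.0044.

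Several of the higher genes had most of their UMIs in the S100a8-rich cells. Of the 20, 6 remained called without the cells of at least 10 S100a8 UMIs, 3 fell under 2-fold and 11 had too few UMIs left to be measured, 7 of them with a ratio still at 2 or more. S100a8 was at 1535 CPM in tumor-bearing blood and 338 CPM in naive blood, a ratio of 4.55 (4.11 to 5.03), and of 2.08 without those cells. S100a9, its partner chain, had a ratio of 3.73 (3.41 to 4.09) and of 1.74 without them. Stfa2l1, a stefin-family protease inhibitor with near-identical copies, had 63 UMIs in tumor-bearing blood and 11 in naive blood, and 0 and 1 without those cells. Il1b, which encodes interleukin 1 beta, was at 299 CPM against 117, a ratio of 2.55 (2.10 to 3.09), and of 1.70 without them. Of the granule and acute-phase list 5 of 10 measured genes were called higher, and its median log2 ratio of 1.01 in cluster 4 stood beside 1.19 in the other cells of the same libraries.

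Several higher genes kept their ratio in the remaining cells. Lpin1, a phosphatidate phosphatase of lipid synthesis, had a ratio of 2.42 (1.42 to 4.14), with 2.45 without the S100a8-rich cells and 0.855 in the other counted cells. Dennd4a, a DENN-domain protein that activates Rab GTPases, had a ratio of 2.46 (1.53 to 3.99), with 2.62 and 1.08. The difference of cluster 4 from the other cells had no test for these genes, with a single library on each side. Clec4e, the lectin receptor Mincle, had a ratio of 2.54 (1.73 to 3.74), with 2.66 without those cells and 2.01 in the other counted cells. Fkbp5, a chaperone induced by glucocorticoids, had a ratio of 2.71 (1.57 to 4.74), with 2.63 and 2.70, and was the only called gene of 6 measured on the glucocorticoid list. Id3, an inhibitor of DNA binding, had 33 UMIs in tumor-bearing blood and 19 in naive blood, a ratio of 3.46 (1.91 to 6.44), and 31 and 18 UMIs without those cells, which is under the minimum.

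The genes lower in tumor-bearing blood included several enzymes of lipid synthesis, and 13 of the 18 remained called without the S100a8-rich cells. Idi1, the isomerase of isopentenyl diphosphate, on chromosome 13 at 8885501 to 8892451, was at 44.8 CPM in tumor-bearing blood and 136 CPM in naive blood, a ratio of 0.329 (0.226 to 0.468). Other sterol enzymes called lower included Fdft1, squalene synthase, at 14.5 CPM against 41.3, and Sqle, squalene epoxidase, at 19.4 CPM against 45.5. Outside that pathway Fasn, fatty acid synthase, had a ratio of 0.285 (0.109 to 0.632), Aacs, which activates acetoacetate, 0.425 (0.214 to 0.781), Pcyt2, of phosphatidylethanolamine synthesis, 0.374 (0.184 to 0.699), and Lpin2, a relative of Lpin1, 0.348 (0.165 to 0.666). Sqle ended as a call without the S100a8-rich cells, at a ratio of 0.468 in which 1 cell held 8 of its UMIs. F13a1 was lower as well, at 53.2 CPM against 120, a ratio of 0.443 (0.312 to 0.617), with 0.942 in the other cells. The remaining lower genes (R3hdm1, Ddx1, Nab2, Rbks, Sae1, Rnf41, Nom1, Ppif and Smarcb1) had 5 to 21 UMIs in tumor-bearing blood.

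The whole chain of sterol enzymes was then looked at, as a list of 20 genes chosen after the calls were seen, so that its count describes and does not test. In blood 12 were measured and all 12 had a ratio below 1, 4 of them called, with a median log2 ratio of −0.72 against −0.26 for the same genes in the other cells and −0.0044 over all measured genes. Fdps was at 119 CPM in tumor-bearing blood against 209 in naive blood, Hmgcs1 at 59.3 against 112, Cyp51 at 55.7 against 94.7, Pmvk at 55.7 against 66.2 and Mvd at 32.7 against 34.0. Naive blood was the highest of the 4 libraries for 10 of the 12. Summed over the 20 genes, cluster 4 held 634 CPM in tumor-bearing blood, 1107 in naive blood, 500.5 in tumor-bearing spleen and 708 in naive spleen, and the other cells 478, 567, 413 and 466 CPM. Naive blood had the highest sum of the 4, and cluster 4 had a higher sum than the other cells in each library. In spleen 7 of the 20 were measured, all 7 with a ratio below 1 and none called, with a median log2 ratio of −0.30.

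**Figure D4:**
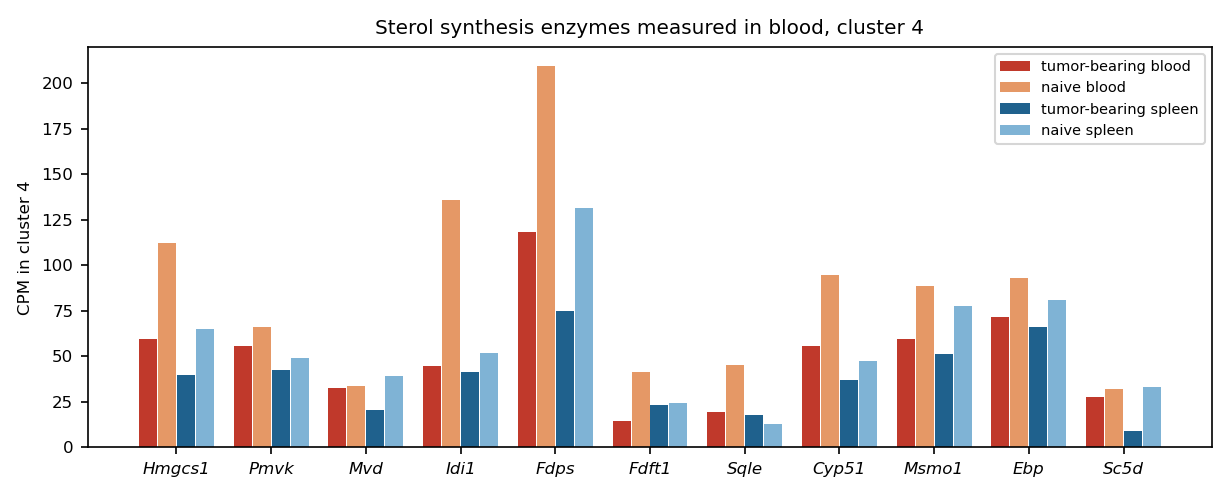
CPM in cluster 4 for 11 of the 12 sterol synthesis enzymes measured in blood, in the order of the pathway, with a bar for each library. Naive blood is the highest bar for 9 of the 11, with Idi1 at 136 CPM there and at 41.2 to 51.9 CPM in the other 3 libraries.

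Genes of this pathway are known to share the factors SREBP-2 and NF-Y at their promoters. The promoters of 2 genes are shown as the 250 bases before their RefSeq start (GRCm38.p6), on the gene's strand, Hmgcs1, which was not called, because it holds both motifs searched, and Fasn as a called gene of fatty acid synthesis. Capitals mark the letters of the NF-Y site, CCAAT, searched on both strands, and TCACNCCAC (GTGGNGTGA on the other strand), a form of the sterol regulatory element; 2 CCAAT matches in Fasn overlap each other.
Hmgcs1, chr13:119690101-119690350, plus strand: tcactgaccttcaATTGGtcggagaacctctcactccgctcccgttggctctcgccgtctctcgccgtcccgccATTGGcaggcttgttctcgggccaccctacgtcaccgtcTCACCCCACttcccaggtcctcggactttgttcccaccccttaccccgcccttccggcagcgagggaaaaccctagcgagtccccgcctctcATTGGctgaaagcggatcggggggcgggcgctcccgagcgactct
Fasn, chr11:120824548-120824797, minus strand: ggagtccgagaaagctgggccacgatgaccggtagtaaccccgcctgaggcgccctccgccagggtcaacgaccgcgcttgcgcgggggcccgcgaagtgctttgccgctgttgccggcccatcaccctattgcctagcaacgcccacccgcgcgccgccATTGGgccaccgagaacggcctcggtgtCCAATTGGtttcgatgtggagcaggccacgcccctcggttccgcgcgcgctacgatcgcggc
Of the 20 enzymes 15 had a promoter in the RefSeq table, and 13 of the 15 held CCAAT within these 250 bases and 1 the sterol element form, beside 34.5% and 1.04% of all 27025 promoters. Aacs and Lpin2, also called lower outside the sterol list, were searched as well and had 0 matches of either motif. Fasn had 3 matches of CCAAT and 0 of the sterol element form. A match describes the letters and not a bound site.

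In spleen, 11 genes were called higher and 8 lower in tumor-bearing than in naive mice, 0.302% and 0.219% of 3647 measured genes (0.521% in either direction). Ifitm1, an interferon-induced transmembrane gene on chromosome 7 at 140967221 to 140969825, was at 138 CPM in tumor-bearing spleen and 21.6 CPM in naive spleen, a ratio of 6.39 (3.69 to 11.9). Wfdc21, a whey acidic protein-type antimicrobial gene, had a ratio of 5.47 (3.06 to 10.5) and Retnlg, a resistin-like neutrophil gene, of 3.65 (2.78 to 4.87). The S100a8-rich cells held 67 of 94, 59 of 75 and 216 of 240 of their UMIs in tumor-bearing spleen, and all 3 fell under the minimum without them. Their ratios in the remaining cells were 7.17 (2.50 to 28.2) for Ifitm1, 17.0 (2.64 to 712) for Wfdc21, on 16 UMIs in tumor-bearing and 1 in naive spleen, and 2.55 (1.17 to 5.97) for Retnlg. S100a8 was at 2349 CPM in tumor-bearing spleen and 1242 CPM in naive spleen, a ratio of 1.89 that was not called, and at 462 CPM and 82.0 CPM without those cells, a ratio of 5.63 (4.18 to 7.70). S100a9 likewise had a ratio of 1.79 with them and of 5.13 without them, so that the cells under 10 S100a8 UMIs held more of both transcripts in tumor-bearing than in naive spleen. In tumor-bearing spleen the S100a8-rich cells held 8 of 29 UMIs of Ngp and 4 of 22 of Camp, both neutrophil markers. Neutrophil RNA there was thus not confined to the S100a8-rich cells, and its part from free RNA was not tested. The 6 higher genes that remained called without those cells were Acp2, a lysosomal acid phosphatase, at 91.3 CPM against 36.1, Lman1, a cargo receptor of the secretory pathway, at 66.2 against 26.0, Cyth3, an exchange factor for ARF GTPases, at 66.2 against 27.4, Atg4d, an autophagy protease, at 61.8 against 27.4, Runx2, a Runt-family factor, at 78.0 against 39.0, and Dennd4a. Midn, which encodes a nuclear ubiquitin-like protein, had a ratio of 2.68 (1.47 to 5.10) and 46 UMIs in both libraries together without those cells. Among the lower genes P2rx4, an ATP-gated channel, was at 16.19 CPM against 56.3, Plxnd1, a semaphorin receptor, at 23.6 against 66.4, and Ccng1, a cyclin G gene, at 27.97 against 67.8. None of the 8 lower genes had more than 30 UMIs in tumor-bearing spleen.

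MHC class II genes, which present antigen to helper T cells, had ratios on opposite sides of 1 in cluster 4 and in the other cells of spleen. Of 10 genes 6 were measured, all 6 with a ratio below 1 and none called, with a median log2 ratio of −0.59 in cluster 4 and 0.18 in the other cells. H2-Eb1, a beta chain, was at 109 CPM in tumor-bearing spleen and 224 CPM in naive spleen, a ratio of 0.487 (0.364 to 0.646), beside 1.28 in the other cells. It passed 2-fold with all cells, but a single cell held 73 of its UMIs, and the ratio without that cell was 0.896. H2-Aa was at 349 CPM against 600, a ratio of 0.581 and of 0.715 without its top cell, beside 1.23 in the other cells, and the invariant chain Cd74 at 2505 CPM against 3197. In blood the median was −0.18 in cluster 4 and 0.28 in the other cells. The I-A/I-E tag, which reads the same molecules, took 138 of 10000 in tumor-bearing spleen and 163 in naive spleen within cluster 4, a ratio of 0.849 (0.802 to 0.899), beside 1.28 in the other cells. It took 95.4 against 104 in blood, a ratio of 0.914 (0.877 to 0.953), beside 1.18. As mean tags per cell the ratios in cluster 4 were 0.581 in spleen and 2.54 in blood, beside 0.979 and 3.13. The difference between cluster 4 and the other cells was not tested.

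Across both tissues 3 genes were called in the same direction, out of 38 in blood and 19 in spleen, and no gene in opposite directions. Calls were 0.734% of 5174 measured genes in blood and 0.521% of 3647 in spleen. The genes measured in both tissues are not counted here, so the overlap of 3 describes and does not test. Ifitm1 was at 98.01 CPM in tumor-bearing blood and 17.6 CPM in naive blood, a ratio of 5.57 (3.60 to 8.82), beside 6.39 in spleen. Without the S100a8-rich cells it had 21 UMIs in tumor-bearing blood and 16 in naive blood, a ratio of 2.88 (1.43 to 5.90), and 27 in tumor-bearing spleen and 4 in naive spleen, 7.17 (2.50 to 28.2), both under the minimum of 50 UMIs. Amica1, the junctional adhesion molecule-like gene now called Jaml, had ratios of 4.38 (2.53 to 7.85) in blood and 3.0 (1.70 to 5.55) in spleen, and 3.29 and 2.41 without those cells, again under the minimum. Dennd4a, on chromosome 9 at 64811340 to 64919667, was at 50.8 CPM in tumor-bearing blood and 20.6 CPM in naive blood, and at 78.0 CPM in tumor-bearing spleen and 33.2 CPM in naive spleen. It was the only gene of the 3 that remained called without those cells, at 2.62 in blood and 2.81 in spleen, and its ratio in the other counted cells was 1.08 and 1.09. The relatives of Ifitm1 on the list, Ifitm2, Ifitm3 and Ifitm6, had ratios of 1.07, 0.900 and 0.885 in blood and of 1.03, 0.885 and 0.848 in spleen.

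**Figure D5:**
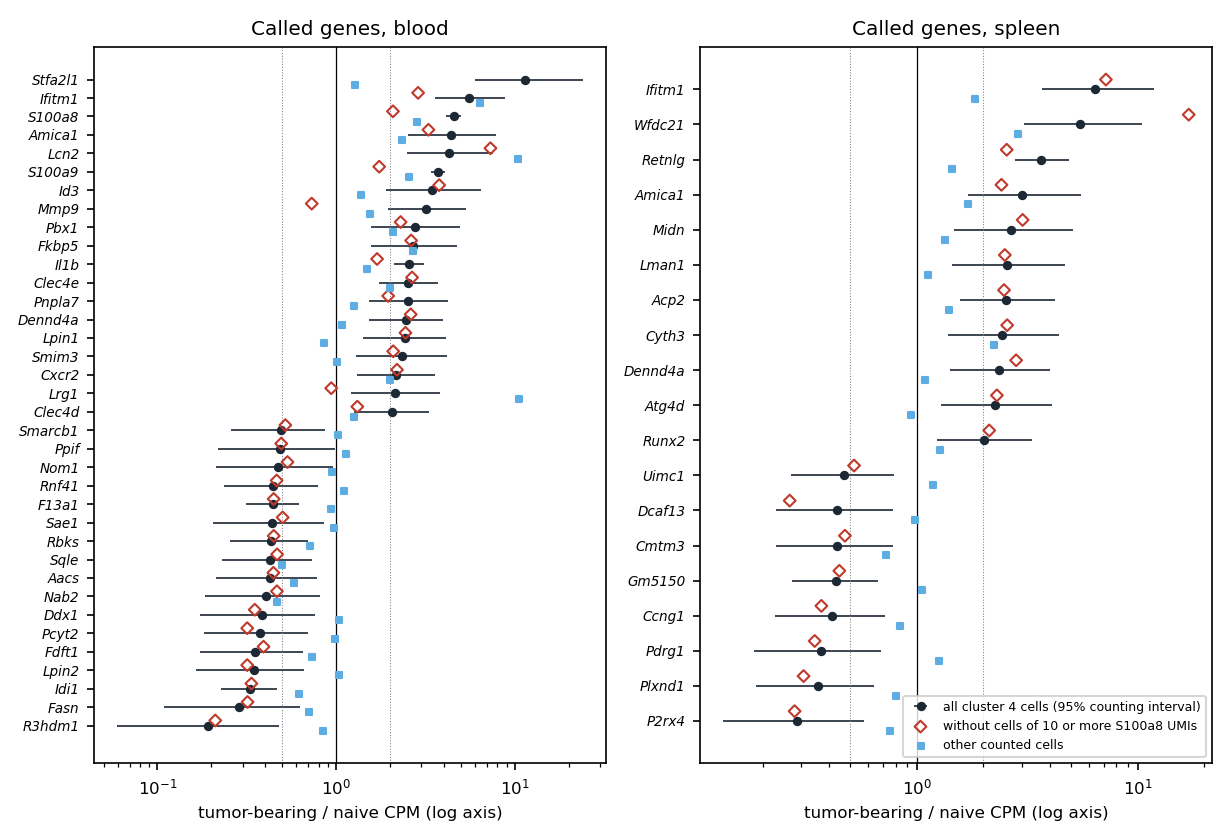
Ratio of tumor-bearing to naive CPM on a log axis for 36 of the 38 genes called in blood (left) and the 19 called in spleen (right). Black points are cluster 4 with their 95% counting interval, open red diamonds cluster 4 without the S100a8-rich cells (not drawn at a ratio of 0) and blue squares the other counted cells; Ifitm1, Amica1 and Dennd4a appear at ratios above 2 on both sides.

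On the cell surface, CD16.2 was the tag called higher in tumor-bearing blood at 1.5-fold, 1 of 47 (2.13%), with none lower. It made up 391 of 10000 tags there and 213 in naive blood, a ratio of 1.83 (1.79 to 1.88), and 385 and 206 without the S100a8-rich cells. Fcgr4 RNA had a ratio of 1.86 (1.40 to 2.47), with 121 CPM against 65.0. In spleen CD16.2 had a ratio of 1.37 (1.32 to 1.44) and Fcgr4 of 1.30 (0.874 to 1.93). The other counted cells had CD16.2 ratios of 1.52 in blood and 1.40 in spleen. In spleen the tag called higher was CD11b, at 1327 of 10000 in tumor-bearing mice and 760 in naive mice, a ratio of 1.75 (1.71 to 1.78), again 1 of 47 with none lower. CD11b had a ratio of 1.41 in blood, and of 1.21 and 1.34 in the other cells of blood and spleen, while Itgam RNA, which encodes it, was at 328 CPM against 327 in blood and at 316 against 309 in spleen. CD11b was also the handle of the enrichment. Ly-6C took a smaller share in tumor-bearing mice, with ratios of 0.774 (0.767 to 0.781) in blood and 0.734 (0.724 to 0.744) in spleen, and shares of 1 total move together. As mean tags per cell, the ratios of tumor-bearing to naive mice were 5.09 in blood and 0.940 in spleen for CD16.2, 3.92 and 1.19 for CD11b, and 2.15 and 0.502 for Ly-6C. On that scale the CD11b call in spleen ended, and CD16.2 in spleen and Ly-6C in blood turned round, while the tags per cell themselves differed between these libraries as given above.

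Spleen was compared with blood within each disease state, and these comparisons share libraries with the ones above. In naive mice 16 genes were called higher and 42 lower in spleen, 0.318% and 0.834% of 5033 (1.15% in either direction), and in tumor-bearing mice 11 and 18, 0.283% and 0.463% of 3885 (0.746%). Igkc, the kappa light chain, was called higher in both, at 89.5 CPM in naive spleen against 12.1 in naive blood and at 110 CPM in tumor-bearing spleen against 13.3 in tumor-bearing blood, and its part from free RNA of B cells was not tested. Bcl2, on chromosome 1 at 106538178 to 106714274, was called lower in both, at 47.6 CPM in naive spleen against 109 in naive blood, a ratio of 0.438 (0.293 to 0.638), and at 26.5 CPM in tumor-bearing spleen against 99.2 in tumor-bearing blood, 0.267 (0.151 to 0.449). Trib1, a pseudokinase that controls Cebpa levels, had ratios of 0.349 in naive and 0.438 in tumor-bearing mice, the second of them 0.513 and no longer a call without the S100a8-rich cells. In all, 4 genes were called lower in both, 1600012H06Rik, an unnamed gene model, among them, and Igkc alone higher. The genes measured in both comparisons are not counted here either, so this overlap only describes.

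Each disease state also had calls of its own, which were not tested against each other. In naive spleen Id1, an inhibitor of DNA binding, had 2 UMIs against 52 in naive blood, Dusp16, a phosphatase of JNK, was at 15.9 CPM against 54.0, Pdgfb, a growth factor, at 28.9 against 72.3, and the heat shock gene Hspa1a at 79.4 against 171. Idi1 and Sqle were lower there too, at ratios of 0.382 and 0.285 to the same naive blood library. S100a8 was called higher in naive spleen against naive blood at 3.68 (3.304 to 4.10), and had a ratio of 1.09 without the S100a8-rich cells. Lcn2, Mmp9 and Cxcr2, called higher with it, fell under the minimum without those cells, with ratios of 1.63 (0.136 to 14.3), 3.54 (1.40 to 9.38) and 6.53 (1.57 to 38.2) on 2 and 3, 13 and 9, and 8 and 3 UMIs in naive spleen and naive blood. Plxnd1 was at 66.4 CPM in naive spleen against 24.9 in naive blood, and Arhgef3, a guanine nucleotide exchange factor, at 90.9 against 40.1. In tumor-bearing spleen Fos was at 32.4 CPM against 105 in tumor-bearing blood, beside a ratio of 0.179 in the other cells, and 2 of 10 measured immediate early genes were called lower. Cd9, a tetraspanin, was at 58.9 CPM against 172, with 0.969 in the other cells, and Fabp4 at 58.9 against 161. Marcksl1, a protein that binds actin, was at 146 CPM against 46.0, and Cyld, a deubiquitinase that restrains NF-kB, at 58.9 against 23.0. Of the 8 cluster markers, 8 had a ratio of spleen to blood below 1 in naive mice and 7 in tumor-bearing mice. Eno3 had ratios of 0.525 and 0.618 and Treml4 of 0.641 and 0.623, neither called, and Fabp4 in tumor-bearing mice was the only marker called.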

How the data were processed

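RNA and antibody tags were read with Chromium 3′ chemistry in 7 libraries, 1 per tissue and disease state, per the labels' protocols, and the submitters' processing notes name Cell Ranger and mm10. From the authors come deposited UMI counts for genes, counts for antibody tags, cluster numbers at several resolutions and the mitochondrial fraction of each cell, as named per the file headers. For the Cell Ranger version, annotation and cell filters the sources used here give nothing. Of 4527 cells in the metadata 4290 had counts. The authors' normalized values were not used, and positions come from GENCODE vM21.

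Counts were summed per library and set of cells and scaled to CPM, with the cluster's summed UMIs as the total. Exact 95% conditional binomial intervals reflect counting error alone, and they are too narrow where a gene's UMIs sit in few cells. Log2 ratios used a pseudo-count of 10 CPM. Clusters were made from RNA, so RNA differences from the other cells are given with no test, while tags were compared by an exact sign-flip permutation test over 4 libraries. Genes named were all called ones where 24 or fewer, else the 12 highest and 12 lowest by log2 ratio, up to 4 measured members of each list, the genes called in both tissues, the 8 markers and the 16 highest and 10 lowest genes against the other cells. Mitochondrial, ribosomal-protein, haemoglobin, immunoglobulin, sex-linked and unnamed genes stayed out of the ranking. Genes named beyond that rule, such as Lpin1 and Igkc, and the sterol list were chosen after their values were seen. The members and lists were chosen with earlier results of these data known. Some genes that the rule names are not reported here. Functions were tested on simulated data. Python 3.11.15, numpy 2.4.6, scipy 1.17.1 and pandas 2.3.3 were used.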

Additional observations from a re-analysis of the deposited data

How the results depend on the processing

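Counts are given as higher and lower genes for tumor-bearing over naive blood, tumor-bearing over naive spleen, naive spleen over naive blood and tumor-bearing spleen over tumor-bearing blood, which as reported were 20 and 18, 11 and 8, 16 and 42, and 11 and 18. With no minimum beyond 1 UMI in each library they were 425 and 455, 429 and 429, 439 and 400, and 393 and 440. With at least 100 UMIs and 40 CPM they were 6 and 4, 2 and 1, 2 and 12, and 2 and 7, and the 50 and 37 genes of cluster 4 against the other cells became 33 and 23. Without the check on the top cell, spleen had 19 and 13, naive spleen over blood 35 higher and tumor-bearing spleen over blood 21 higher. With the mean of per-cell CPM, the last had 23 higher. On that scale 17 and 11, 10 and 8, 14 and 37, and 8 and 15 of the reported genes stayed called. Without the 2% of cells with most UMIs, 16 and 12, 11 and 6, 12 and 33, and 6 and 15 of them did. With cells thinned to 5000 UMIs they were 8 and 17, 10 and 11, 6 and 25, and 7 and 14, of which only 3 and 2, 3 and 1, 2 and 5, and 1 and 5 were among the genes reported, with 2791, 2078, 2843 and 2030 genes measured, and cluster 4 against the other cells 29 higher. Cells with markers of other types were those with at least 2 UMIs of a gene in each of at least 2 lists of such markers. Those lists include genes that monocytes also express, such as Hmox1. Leaving these cells out kept 11 cells in tumor-bearing blood, 19 in naive blood, 10 in tumor-bearing spleen and 12 in naive spleen. It gave 6 and 4, 1 and 2, 2 and 6, and 3 and 5, with only 880, 505, 828 and 544 genes measured. None of these was a gene reported, so that every reported call ended. Without the S100a8-rich cells, an alternative chosen after seeing the data, blood had 7 higher and naive spleen over blood 8 higher. As mean tags per cell, 47 tags were higher in blood, and 0 higher and 6 lower in spleen, since the libraries differ in tags per cell. Ratios turned round without cells with markers of other types for Sqle (1.01), Id3 (0) and Mmp9 (0) in blood, Cmtm3 (1.32) in spleen, Atg4d (2.18), Trib1 (1.09), Zfp644 (0) and Bmf (0.519) in naive spleen over blood, and Cd9 (5.69) and Irf2bpl (1.19) in tumor-bearing spleen over blood, all from few UMIs. Without the S100a8-rich cells Mmp9 (0.731) and Stfa2l1 (0) turned round in blood. The cause of the other shifts was not tested. No paired analysis was possible because each group is a single library with no replicate number to share; a disease effect common to blood and spleen, with tissue as a block, was not fitted.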

Other observations

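Outside blood and spleen, 6 cells fell in cluster 4, too few for any comparison. The 3 cells in the tumor had UMIs of 7, 7 and 5 of the 8 markers, with 3, 6 and 10 Ace UMIs and none of S100a8. The 2 cells in tumor-bearing bone marrow had 5 and 4 markers, and 23 and 9 S100a8 UMIs. The cell in naive bone marrow had 5 markers and 19 S100a8 UMIs.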
